A study of Mus musculus with 3 samples.

Results

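The 10 genes described here, *Cadm1*, *Itgae*, *Cd24a*, *Btla*, *Cd8a*, *Gcsam*, *Plpp1*, *Pianp*, *Snx22* and *Plet1*, mark type 1 conventional dendritic cells (cDC1s) or take part in how these cells adhere. They were chosen by name, as 10 of the 32285 genes in the matrices, and all 10 were found there. cDC1s take up material from dying cells and present it to CD8 T cells, a task that in tumours depends on their position and their contacts. Their surface proteins include adhesion receptors that hold them to epithelium and to T cells, and inhibitory receptors that T cells also carry. Antibodies to several of these proteins have long been used to tell cDC1s from cDC2s, the other main subset.

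Single-cell RNA sequencing measured dendritic cells sorted from MCA205 LA OVA tumours, a mouse fibrosarcoma line that carries ovalbumin. There was 1 library for each of 3 genotypes on the C57BL/6J background: WT, sGSN-/- (no secreted gelsolin, a plasma protein that covers actin of dead cells) and sGSN-/-Clec9a-/- (also without *Clec9a*, the receptor for that actin). Mice were 6 to 20 weeks old, tumours were harvested on day 5, and tumours of a genotype were pooled: 25 male and 12 female WT mice, 15 and 16 sGSN-/- mice, and 10 and 17 sGSN-/-Clec9a-/- mice. The sort took CD45-positive, CD11c-positive, MHCII-positive, CD88-negative cells without CD3e, NK1.1, B220 and other lineage proteins, then XCR1-positive cDC1s, Sirpa-positive cDC2s and CD135-positive, CD43-positive pre-cDCs, so no protein of the 10 genes was in the gate.

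The libraries held 12763, 8173 and 9273 barcodes and 176578136, 109270958 and 113411930 UMIs (unique molecules counted) in WT, sGSN-/- and sGSN-/-Clec9a-/-. The deposited table names 2316, 1712 and 1778 of these barcodes as cDC1s, in clusters 0 to 11. The clusters fall into early (4 and 1, 1332 cells), resting (5, 2, 3, 6 and 0, 3499 cells) and activated cDC1s (7, 9, 8 and 10, 915 cells). Cluster 10 is the smallest of these, with 21, 27 and 28 cells. Median depth per cell was 12521.5 UMIs in early, 13930 in resting and 13430 in activated cDC1s. Cluster 6 was the shallowest of clusters 0 to 10, with a median of 8530.5 UMIs, where the other resting clusters had 13824 to 14925. Pairs of libraries shared 26, 28 and 27 barcodes, of which 2, 2 and 3 were cDC1s. The 7 cDC1 markers, none of them among the 10 genes, were summed as CPM (UMIs scaled to the depth of the sum). They came to 4206 ± 28.2 CPM (mean ± SD over 3 libraries) in resting cDC1s and to 578 ± 78.96 in cDC2-like cells. The same markers took part in naming the cDC2-like cells, as given below, and XCR1 was in the sort. The lower sum of cDC2-like cells is thus no independent check.

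Levels below are CPM of the summed cells of a library and cluster, and ± gives the SD over the 3 libraries, or the SE after a log2 fold change. CPM divides by depth, so equal UMIs per cell give a higher CPM in the shallow cluster 6. Where cluster 6 had the highest mean CPM, its UMIs per cell with a UMI were below those of cluster 2. They were 2.61 and 2.67 for *Cadm1*, 3.24 and 3.475 for *Itgae*, and 8.57 and 10 for *Cd24a*. For *Btla* they were 2.57 and 2.75, and for *Pianp* 1.76 and 1.97. The part of depth in these levels was not tested. Clusters are apart beyond both SDs where their means differ by more than the sum of their SDs. Each state was compared across the 3 libraries with edgeR, and a gene is called at an adjusted p under 0.05 over all genes tested. Libraries served as replicates of a state although they differ in genotype, so the SD contains any effect of genotype. Because the clusters come from the counts tested here, adjusted p values describe how far libraries agree and are no evidence that the states exist. With 1 library per genotype, genotypes were not tested. All 10 genes passed the filter on low counts in all 9 comparisons. Levels are not compared between genes.

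The targeted genes were read first. *Clec9a* measured 168 CPM in WT, 168 in sGSN-/- and 0.0933 in sGSN-/-Clec9a-/- in cDC1s, the last from 2 UMIs (95% interval 0.0113 to 0.337 CPM). *Gsn*, the gelsolin gene, measured 152 CPM in WT, 169 in sGSN-/- and 167 in sGSN-/-Clec9a-/-. The *Clec9a* level went with the genotype labels, while gene counts of *Gsn* do not separate the secreted transcript from the intracellular one.

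The first comparison asks how early cDC1s differ from resting ones. Of the 10 genes, 9 were called, where 35.4% of the 10207 genes tested were called (3609 genes). *Plet1* was higher in early cDC1s, beside 17.2% of all genes, and 8 genes were lower, beside 18.2%. *Cd8a* was not called (adjusted p 0.51). The median log2 fold change of the 10 genes was -0.71, beside -0.0086 for all genes tested. Without the WT library 1875 genes were called, and *Snx22* missed the threshold (-0.33, adjusted p 0.055).

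The second comparison sets activated against resting cDC1s. It called 8 of the 10 genes, beside 27.6% of the 10207 genes tested (2820 genes). *Cd8a* and *Plet1* were higher, beside 16.3% of all genes, and 6 genes were lower, beside 11.35%. *Cadm1* (adjusted p 0.059) and *Snx22* (0.17) were not called. The median log2 fold change was -0.39 for the 10 genes and -0.035 for all genes. Of all calls, 58.9% were higher in activated cDC1s, and 46.6% with library size factors in place of TMM factors. Without the WT library 1658 genes were called, and without the sGSN-/- library 1618. Both comparisons use the same resting sums.

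**Figure D1:**
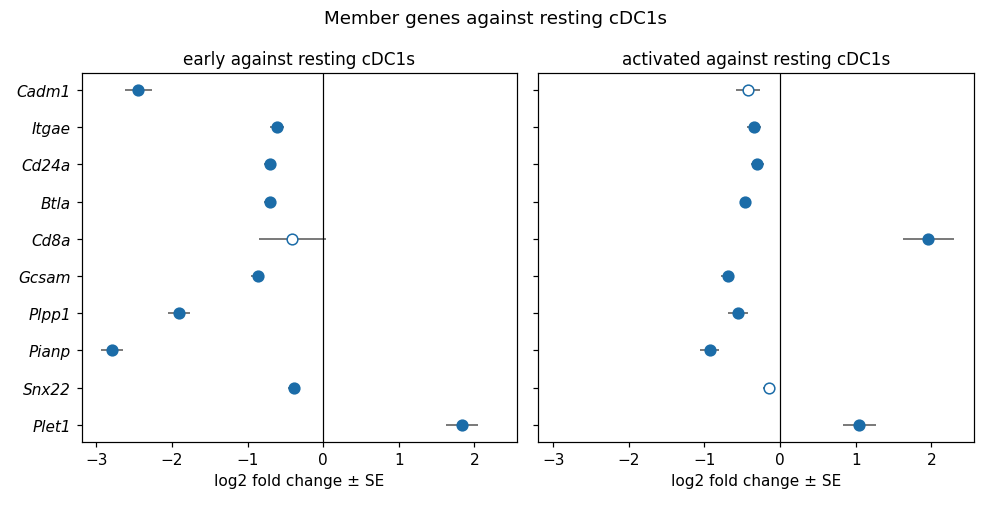
Log2 fold changes of the 10 genes in early (left) and activated (right) against resting cDC1s, with bars of 1 SE from the edgeR fit over 3 libraries; filled points were called. *Plet1* sits to the right of 0 in both panels, at 1.83 and 1.05.

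Taken singly, the activated clusters differed from resting cDC1s to unequal extents. In cluster 7, 4 of the 10 genes were called, beside 17.1% of the 9037 genes tested: *Snx22* higher (all genes 11.75%) and *Cadm1*, *Btla* and *Pianp* lower (5.39%). The other genes were *Itgae* (-0.076, adjusted p 0.84), *Cd24a* (-0.089, adjusted p 0.69), *Cd8a* (0.99, adjusted p 0.39), *Gcsam* (-0.27, adjusted p 0.16), *Plpp1* (-0.45, adjusted p 0.095) and *Plet1* (0.54, adjusted p 0.32). Without WT that count of calls was 2 and without sGSN-/- it was 1, while all genes called went from 1549 to 905 and 899. Of all calls, 68.6% were higher, and 45.6% with library size factors, with a median of all genes of -0.125 in place of -0.012. More of the 10 genes were called in cluster 7 without the filter on low counts, as given under the processing. In cluster 9, 2 genes were called, *Gcsam* and *Snx22*, both lower, beside 5.32% of all genes, 4.15% higher and 1.17% lower. With DESeq2 the median of all genes there was 0.15 over 18137 genes, in place of -0.0058 over 9037. This changed both the tool and the gene set. With no filter on low counts the median was -0.21, and 52.5% of calls were higher in place of 77.96%. Neither *Gcsam* nor *Snx22* passed without the WT library (-0.78, adjusted p 0.08 for *Gcsam* and -0.69, adjusted p 0.089 for *Snx22*) or without the sGSN-/- library (-0.69, adjusted p 0.14 and -0.51, adjusted p 0.22). All genes called in cluster 9 went from 481 to 209 and 248 without these libraries. Not called in cluster 9 were *Cadm1* (0.26, adjusted p 0.64), *Itgae* (-0.21, adjusted p 0.73), *Cd24a* (-0.047, adjusted p 0.92), *Btla* (0.042, adjusted p 0.93), *Plpp1* (-0.042, adjusted p 0.96), *Pianp* (0.15, adjusted p 0.72) and *Plet1* (-1.84, adjusted p 0.12), and *Cd8a*, with no UMI there (adjusted p 0.5).

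In cluster 8, 9 of the 10 genes were called, beside 47.7% of all genes: *Cd8a* and *Plet1* higher (all genes 25.5%) and 7 lower (22.2%), with *Cadm1* not called (adjusted p 0.17). Of all calls, 53.5% were higher, and 37.4% with library size factors. These factors moved the median log2 fold change of all genes from -0.034 to -0.25. The DESeq2 median was 0.36, over 18137 genes in place of 9037, so the tool and the gene set both changed. In the main fit the median of the 10 genes was -1.18. NK cell and macrophage marker sums of cluster 8 were also above the resting ones in each library, as given beside *Cd8a*. Their part in these calls was not tested. In cluster 10, 6 were called, beside 14.7% of all genes: *Plet1* higher (all genes 8.32%) and *Cadm1*, *Btla*, *Plpp1*, *Pianp* and *Snx22* lower (6.34%), and not *Itgae* (-0.13, adjusted p 0.82), *Cd24a* (0.080, adjusted p 0.78), *Cd8a* (1.51, adjusted p 0.56) and *Gcsam* (-0.56, adjusted p 0.07). Calls in cluster 10 were higher in 56.75% of cases, with a median of all genes of -0.038. DESeq2, over 18137 genes in place of 9037, gave 70.2% and 0.28. The tool and the gene set both changed there. Without a filter on low counts the share was 46.3% and the median -0.46. The same choice gave medians of -0.32 in cluster 8 and -0.13 in cluster 7. Without WT 765 genes were called in cluster 10 in place of 1325, and without sGSN-/- 814. Without WT, 4 of the 10 genes were called.

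Clusters 8 and 10 were also set against each other. Between them, 4 of the 10 genes were called, beside 27.6% of all genes, each lower in cluster 8 (all genes 11.6%, with 16.01% higher): *Itgae*, *Cd24a*, *Gcsam* and *Plet1*. Those not called were *Cadm1* (0.98, adjusted p 0.098), *Btla* (-0.087, adjusted p 0.81), *Cd8a* (2.10, adjusted p 0.15), *Plpp1* (0.63, adjusted p 0.45), *Pianp* (0.57, adjusted p 0.54) and *Snx22* (-0.52, adjusted p 0.26). Without the WT library *Itgae* (-0.46, adjusted p 0.43) and *Plet1* (-1.03, adjusted p 0.11) missed the threshold, and fewer of all genes were called as well. All genes called went from 2496 to 1614 without sGSN-/-. Higher calls made up 57.97%, and 37.7% with library size factors, whose median of all genes was -0.18 in place of 0.048. Between the early clusters 4 and 1, 6 of the 10 genes were called, beside 13.05% of all genes, each lower in cluster 4 (all genes 5.90%, with 7.15% higher): *Itgae*, *Btla*, *Gcsam*, *Plpp1*, *Snx22* and *Plet1*. The values were *Btla* (-0.43, adjusted p 0.014), *Plpp1* (-1.10, adjusted p 0.021) and *Snx22* (-1.44, adjusted p 1.7e-08), and uncalled ones *Cadm1* (-0.54, adjusted p 0.31), *Cd24a* (-0.26, adjusted p 0.19), *Cd8a* (0.87, adjusted p 0.67) and *Pianp* (-0.10, adjusted p 0.86). *Btla* and *Plpp1* missed the threshold without WT (-0.47, adjusted p 0.1 and -1.09, adjusted p 0.095) and without sGSN-/- (-0.30, adjusted p 0.26 and -0.70, adjusted p 0.32). Without these libraries all genes called went from 1179 to 536 and 559. Higher calls made up 54.8%, and 74.96% with library size factors, whose median of all genes was 0.10 in place of -0.0077.

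The adhesion receptors come first. *Cadm1* (ENSMUSG00000032076, chromosome 9, 47530173 to 47857637, plus strand) encodes a cell adhesion molecule of the immunoglobulin superfamily that binds CRTAM on T cells. In early cDC1s it measured 21.5 CPM in WT, 13.3 in sGSN-/- and 26.15 in sGSN-/-Clec9a-/-. Resting cDC1s had 119.96 CPM in WT, 96.7 in sGSN-/- and 114 in sGSN-/-Clec9a-/-. Activated cDC1s had 73.3 CPM in WT, 70.6 in sGSN-/- and 91.5 in sGSN-/-Clec9a-/-. The 3 resting sums were all above the others, and early sums did not overlap either state. The fitted log2 fold change was -2.45 ± 0.18, adjusted p 2.4e-07 for early cDC1s, lower in 3 of 3 libraries, and -0.43 ± 0.16, adjusted p 0.059 for activated ones. The latter passed the threshold with the library as a block (-0.43, adjusted p 0.0013), with library size factors (-0.50, adjusted p 0.024) and without sGSN-/-Clec9a-/- (-0.50, adjusted p 0.016). From high to low, its means were 180.4 ± 39.7 in cluster 6, 131 ± 32.7 in cluster 9, 124 ± 9.36 in cluster 2, 118 ± 15.6 in cluster 3, 107 ± 1.55 in cluster 0, 78.3 ± 31.5 in cluster 8. The order went on with 68.01 ± 18.8 in cluster 7, 41.9 ± 23.4 in cluster 10, 38.1 ± 13.7 in cluster 5, 22.3 ± 6.44 in cluster 1 and 16.95 ± 8.13 in cluster 4. No neighbours in this order were apart by more than both SDs. Cluster 5, placed in the resting state, was nearer to the early clusters than to cluster 0. In cluster 7 it was lower (-0.60 ± 0.20, adjusted p 0.037), but not with DESeq2 (-0.60, adjusted p 0.33), without WT (-0.50, adjusted p 0.33) or without sGSN-/- (-0.55, adjusted p 0.15). Cluster 8 had 62.97 CPM in WT, 57.5 in sGSN-/- and 114 in sGSN-/-Clec9a-/-, overlapping resting cDC1s, and *Cadm1* was called there without the last library (-0.64, adjusted p 0.013). In cluster 10 the sums were 5, 20 and 13 UMIs, a log2 fold change of -1.39 ± 0.38, adjusted p 0.012, and -0.98, adjusted p 0.22 without WT. Against cluster 10, cluster 8 was not called (0.98 ± 0.44, adjusted p 0.098), but was without sGSN-/- (1.65, adjusted p 0.021) and with the block (1.005, adjusted p 0.048).

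*Itgae* (ENSMUSG00000005947, chromosome 11, 73090583 to 73147446, plus strand) encodes CD103, the integrin alpha chain that pairs with the *Itgb7* product and binds E-cadherin. The gene *Haspin* lies within it on the other strand, with 68 UMIs in cDC1s, and the labels do not state whether counting was by strand. Early cDC1s had 107 CPM in WT, 129 in sGSN-/- and 119.75 in sGSN-/-Clec9a-/-. In resting cDC1s the level was 161 CPM in WT, 198 in sGSN-/- and 185 in sGSN-/-Clec9a-/-. Among activated cDC1s it was 135 CPM in WT, 140.1 in sGSN-/- and 134 in sGSN-/-Clec9a-/-. Resting sums lay above both other states in every library. The log2 fold change was -0.61 ± 0.094, adjusted p 0.00018 in early cDC1s and -0.34 ± 0.095, adjusted p 0.014 in activated ones. The activated value missed the threshold without sGSN-/- (-0.30, adjusted p 0.12) and without sGSN-/-Clec9a-/- (-0.29, adjusted p 0.073). By cluster the means ran 284 ± 24.6 in cluster 6, 199 ± 19.7 in cluster 2, 180.1 ± 23.9 in cluster 0, 169.7 ± 82.4 in cluster 10, 164 ± 14.955 in cluster 1, 159 ± 20.3 in cluster 7. Below these came 156 ± 37.3 in cluster 9, 149.99 ± 27.9 in cluster 5, 137.5 ± 9.18 in cluster 3, 70.01 ± 38.2 in cluster 8 and 39.1 ± 15.3 in cluster 4. Neighbours in this order were apart beyond both SDs only at clusters 6 and 2, and clusters 3 and 8. The early clusters held unlike levels: cluster 4 had 28.4 CPM in WT, 32.3 in sGSN-/- and 56.7 in sGSN-/-Clec9a-/-, and cluster 1 had 154 CPM in WT, 181 in sGSN-/- and 156 in sGSN-/-Clec9a-/-. These did not overlap, and cluster 4 was lower by test (-2.21 ± 0.24, adjusted p 8.8e-08). Cluster 8 was below resting cDC1s in all 3 libraries (34.9 CPM in WT, 64.5 in sGSN-/- and 111 in sGSN-/-Clec9a-/-; -1.29 ± 0.25, adjusted p 9.1e-05). Cluster 10 split by library, with 248 CPM in WT, 83.8 in sGSN-/- and 177 in sGSN-/-Clec9a-/-, and did not differ from resting cDC1s by test (-0.13 ± 0.27, adjusted p 0.82). There 5 cells held 75.7%, 88.5% and 79.25% of the *Itgae* UMIs, with 10, 8 and 11 cells that had one. The sums of clusters 8 and 10 overlapped. Cluster 8 was lower by test (-1.16 ± 0.33, adjusted p 0.0086), and -0.46, adjusted p 0.43 without WT, the library with the highest cluster 10 level.

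Surface glycoproteins follow. *Cd24a* (ENSMUSG00000047139, chromosome 10, 43578284 to 43584265, plus strand) encodes the GPI-anchored CD24, a ligand of Siglec proteins. It measured 359.6 CPM in WT, 410.4 in sGSN-/- and 369 in sGSN-/-Clec9a-/- in early cDC1s. The resting level was 647 CPM in WT, 605 in sGSN-/- and 608 in sGSN-/-Clec9a-/-. The activated level was 496 CPM in WT, 423 in sGSN-/- and 519 in sGSN-/-Clec9a-/-. No sum of the early or activated state reached the lowest resting sum. Its log2 fold change was -0.70 ± 0.083, adjusted p 1.8e-05 in early cDC1s and -0.30 ± 0.083, adjusted p 0.014 in activated ones. The activated value missed the threshold without WT (-0.28, adjusted p 0.11) and without sGSN-/- (-0.24, adjusted p 0.1). Ordered by mean, its clusters were 894 ± 69.1 in cluster 6, 692 ± 24.6 in cluster 2, 657 ± 136 in cluster 10, 587 ± 39.4 in cluster 9, 573 ± 15.5 in cluster 0, 561 ± 19.3 in cluster 3. After them came 539 ± 43.1 in cluster 7, 514 ± 30.5 in cluster 5, 394 ± 22.5 in cluster 1, 354 ± 37.3 in cluster 4 and 196 ± 35.6 in cluster 8. Only clusters 6 and 2, clusters 5 and 1, and clusters 4 and 8 stood apart beyond both SDs among neighbours. Clusters 8 and 10 stood at distant places in this order. Cluster 8 had 199.6 CPM in WT, 158 in sGSN-/- and 229 in sGSN-/-Clec9a-/-, below every other cluster in each library. Cluster 10 had 503 CPM in WT, 760.45 in sGSN-/- and 706 in sGSN-/-Clec9a-/-, and the sums did not overlap. The log2 fold change of cluster 8 was -1.48 ± 0.14, adjusted p 3.4e-10 against resting cDC1s and -1.56 ± 0.15, adjusted p 4.1e-09 against cluster 10. Cluster 10 did not differ from resting cDC1s by test (0.080 ± 0.14, adjusted p 0.78).

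*Plet1* (ENSMUSG00000032068, chromosome 9, 50494525 to 50505482, plus strand) encodes a GPI-anchored surface protein also made by epithelial progenitors. The antisense gene *Plet1os* overlaps it on the other strand and had 143 UMIs in cDC1s. In early cDC1s the level was 149.6 CPM in WT, 205 in sGSN-/- and 113 in sGSN-/-Clec9a-/-. Resting cDC1s measured 32.997 CPM in WT, 61.995 in sGSN-/- and 37.7 in sGSN-/-Clec9a-/-. For activated cDC1s it was 83.7 CPM in WT, 79.1 in sGSN-/- and 97.4 in sGSN-/-Clec9a-/-. Both early and activated sums were above every resting sum, and the early sums were above the activated ones. The log2 fold change was 1.83 ± 0.21, adjusted p 1.4e-05 in early cDC1s and 1.05 ± 0.22, adjusted p 0.0023 in activated ones, each higher in 3 of 3 libraries. The cluster means spanned the widest ratio of the 10 genes apart from *Cd8a*, 34.96-fold: 438 ± 238 in cluster 10, 212 ± 76.95 in cluster 1, 118 ± 45.2 in cluster 5, 109.9 ± 76.8 in cluster 8, 58.6 ± 15.1 in cluster 7, 56.9 ± 18.4 in cluster 4. Lower still were 53.3 ± 25.1 in cluster 6, 47.8 ± 8.24 in cluster 0, 14.9 ± 6.23 in cluster 3, 13.1 ± 13.2 in cluster 9 and 12.5 ± 5.60 in cluster 2. Between neighbours, only clusters 0 and 3 were apart beyond both SDs. Cluster 10 had 687 CPM in WT, 213 in sGSN-/- and 415 in sGSN-/-Clec9a-/-, from 194, 66 and 124 UMIs. All 3 sums were above the highest resting sum, with a log2 fold change of 3.28 ± 0.36, adjusted p 6.7e-08. That value was 2.65 without WT and 3.90 without sGSN-/-. Cluster 8 had 43.6 CPM in WT, 92.1 in sGSN-/- and 194 in sGSN-/-Clec9a-/-, where the WT sum lay within the resting range. Its log2 fold change was 1.38 ± 0.38, adjusted p 0.0035, and 0.79, adjusted p 0.083 without sGSN-/-Clec9a-/-. Against cluster 10, cluster 8 was lower (-1.90 ± 0.40, adjusted p 0.00059), and -1.03, adjusted p 0.11 without WT. Cluster 1 held 214 CPM in WT, 288 in sGSN-/- and 134 in sGSN-/-Clec9a-/-, all above cluster 4 at 42.4 CPM in WT, 50.6 in sGSN-/- and 77.6 in sGSN-/-Clec9a-/- (-2.03 ± 0.34, adjusted p 8.5e-05). Cluster 9 had 4, 4 and 19 UMIs, a log2 fold change of -1.84 ± 0.66, adjusted p 0.12, and -3.17, adjusted p 0.033 without sGSN-/-Clec9a-/-. Few cells held most of the *Plet1* UMIs of clusters 8 and 10. In cluster 10, 28 of 76 cells had a *Plet1* UMI, and 5 cells held 53.6% of 384 UMIs. In cluster 8, 31 of 255 cells had one, and 5 cells held 54.96% of 262. Among resting cDC1s 437 of 3499 cells had one, with 4.66 UMIs per such cell, beside 7.87 in early cDC1s.

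*Cd8a* (ENSMUSG00000053977, chromosome 6, 71373427 to 71379173, plus strand) encodes the alpha chain of CD8, which lymphoid cDC1s carry as a homodimer without the *Cd8b1* product. It was rare in these tumour cDC1s, with 38, 44 and 39 UMIs in clusters 0 to 10. Early cDC1s had 5, 7 and 3 UMIs, or 0.727 CPM in WT, 1.21 in sGSN-/- and 0.623 in sGSN-/-Clec9a-/-. Resting cDC1s had 17, 15 and 22 UMIs, or 0.805 CPM in WT, 1.115 in sGSN-/- and 1.64 in sGSN-/-Clec9a-/-. Activated cDC1s had 16, 22 and 14 UMIs, or 3.45 CPM in WT, 5.18 in sGSN-/- and 4.32 in sGSN-/-Clec9a-/-. The 3 activated sums were above every resting sum, while early and resting sums overlapped. The log2 fold change was 1.96 ± 0.33, adjusted p 0.00044 in activated cDC1s, higher in 3 of 3 libraries. Few cells carry this: 5 cells held 68.75% of the activated UMIs in WT, 77.3% in sGSN-/- and 92.9% in sGSN-/-Clec9a-/-. In the last library 10 of 14 UMIs came from 2 cells of cluster 7, with 7 in 1 cell. By mean the clusters ran 10.6 ± 7.88 in cluster 8, 3.35 ± 5.80 in cluster 10, 2.34 ± 2.98 in cluster 7, 1.45 ± 0.325 in cluster 5, 1.30 ± 0.621 in cluster 4, 1.29 ± 1.04 in cluster 3. Next came 1.13 ± 0.483 in cluster 2, 1.12 ± 1.02 in cluster 6, 1.10 ± 0.325 in cluster 0, 0.607 ± 0.247 in cluster 1 and 0 ± 0 in cluster 9. No neighbours with a UMI were apart beyond both SDs, and the SD of 0 in cluster 9 reflects no UMI. Cluster 9 had no UMI in its 162 cells, and the resting level was itself under the limit that 3 counts allow there, so no fold is given. Cluster 8 had 13, 22 and 1 UMIs, or 12.6 CPM in WT, 17.3 in sGSN-/- and 1.94 in sGSN-/-Clec9a-/-, a log2 fold change of 3.61 ± 0.565, adjusted p 5.7e-06. It remained called without the sGSN-/- library, at 3.09, adjusted p 0.0052. Of its 255 cells 17 had a UMI, and 5 of them held 58.3% of the 36 UMIs. The sort gated out CD3e, NK1.1 and CD88, and markers of such cells were read beside this result. UMIs of *Cd3d*, *Cd3e*, *Cd3g*, *Ncr1* or *Klrb1c* were in 1 of 84 cluster 8 cells in WT, 12 of 114 in sGSN-/- and 0 of 57 in sGSN-/-Clec9a-/-, beside 39 of 1476, 75 of 937 and 34 of 1086 resting cDC1s. The 5 T cell markers summed to 6.92 ± 7.02 CPM in cluster 8 and 3.22 ± 1.20 in resting cDC1s. The 6 NK cell markers summed to 18.4, 137 and 38.8 CPM within cluster 8, where resting cDC1s had 15.6, 38.8 and 24.5 CPM. The same sums were, for the 8 macrophage markers, 607, 58.2 and 73.7 CPM in cluster 8, beside 58.4, 42.3 and 47.2 CPM in resting cDC1s. Apart from the refit that follows, the part of these markers in the *Cd8a* result was not tested. Without cells that had a T or NK cell UMI, the log2 fold change of cluster 8 was 3.495, adjusted p 1.9e-05. *Cd8b1* had 1 UMI in cluster 8 beside 36 of *Cd8a*. T cell-like cells had 1780 UMIs of *Cd8b1* beside 949 of *Cd8a*. None of the 17 cluster 8 cells with *Cd8a* had a UMI of a Cd3 gene or of *Cd8b1*, and 2 had one of *Ncr1* or *Klrb1c*.

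Receptors and ligands that restrain immune cells come next. *Btla* (ENSMUSG00000052013, chromosome 16, 45224315 to 45257670, plus strand) encodes an inhibitory receptor that binds HVEM, the *Tnfrsf14* product. Its level was 91.5 CPM in WT, 89.9 in sGSN-/- and 86.8 in sGSN-/-Clec9a-/- in early cDC1s. It was 149.98 CPM in WT, 146 in sGSN-/- and 144 in sGSN-/-Clec9a-/- in resting cDC1s. It was 110.4 CPM in WT, 91.8 in sGSN-/- and 102 in sGSN-/-Clec9a-/- in activated cDC1s. Resting sums were highest, the activated ones lay between, and no states overlapped. Early cDC1s were lower by test (-0.71 ± 0.071, adjusted p 3.7e-06), as were activated ones (-0.46 ± 0.072, adjusted p 0.00019). Its cluster means were 229 ± 11.03 in cluster 6, 162 ± 16.998 in cluster 2, 150.2 ± 24.5 in cluster 9, 140.04 ± 11.1 in cluster 3, 131 ± 9.61 in cluster 0, 112 ± 1.72 in cluster 5. Further down were 107 ± 17.9 in cluster 7, 96.2 ± 6.52 in cluster 1, 77.1 ± 8.39 in cluster 4, 75.3 ± 11.3 in cluster 10 and 62.2 ± 8.35 in cluster 8. Among neighbours, only clusters 6 and 2, clusters 0 and 5, and clusters 1 and 4 were apart beyond both SDs. Of the activated clusters, 8 (-1.06 ± 0.14, adjusted p 1.5e-07) and 10 (-0.98 ± 0.18, adjusted p 0.00019) were both below resting cDC1s in 3 of 3 libraries. Cluster 9 overlapped them (0.042 ± 0.12, adjusted p 0.93). Cluster 7 was lower (-0.33 ± 0.11, adjusted p 0.029), but missed the threshold without sGSN-/- (-0.26, adjusted p 0.27) and without sGSN-/-Clec9a-/- (-0.30, adjusted p 0.11). *Tnfrsf14* itself measured 1.52 ± 0.252 CPM in cDC1s.

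*Pianp* (ENSMUSG00000030329, chromosome 6, 124996694 to 125003096, plus strand) encodes a ligand of the inhibitory receptor PILRalpha. In early cDC1s it was at 10.8 CPM in WT, 10.03 in sGSN-/- and 13.1 in sGSN-/-Clec9a-/-. Resting cDC1s were at 76.6 CPM in WT, 69.1 in sGSN-/- and 87.4 in sGSN-/-Clec9a-/-. Activated cDC1s were at 40.1 CPM in WT, 34.6 in sGSN-/- and 42.5 in sGSN-/-Clec9a-/-. The states did not overlap, with early sums lowest. Of the 10 genes it had the lowest log2 fold change in early cDC1s, -2.79 ± 0.14, adjusted p 1.3e-08. In activated cDC1s it was -0.93 ± 0.12, adjusted p 3.9e-05. Means by cluster were 102 ± 3.14 in cluster 6, 88.3 ± 9.65 in cluster 2, 85.2 ± 7.61 in cluster 0, 84.97 ± 7.47 in cluster 9, 77.5 ± 17.3 in cluster 3, 38.9 ± 2.01 in cluster 7. The lower part of the order was 29.9 ± 5.42 in cluster 5, 11.7 ± 1.95 in cluster 8, 11.4 ± 3.001 in cluster 4, 11.2 ± 0.794 in cluster 1 and 8.68 ± 9.82 in cluster 10. Steps beyond both SDs separated clusters 6 and 2, clusters 3 and 7, clusters 7 and 5, and clusters 5 and 8, and no other neighbours. Cluster 9 kept a level that overlapped resting cDC1s (0.15 ± 0.15, adjusted p 0.72). Cluster 7 had 41.2 CPM in WT, 37.9 in sGSN-/- and 37.6 in sGSN-/-Clec9a-/-, below them in each library (-0.88 ± 0.14, adjusted p 1.4e-05). Cluster 8 had 9.69 CPM in WT, 11.8 in sGSN-/- and 13.6 in sGSN-/-Clec9a-/-, with a log2 fold change of -2.56 ± 0.24, adjusted p 2.7e-10. Cluster 10 had 0, 6 and 2 UMIs (-3.125 ± 0.39, adjusted p 6.7e-07), with a fitted -4.60 without sGSN-/-. The latter rests on 2 UMIs, whose pooled log2 ratio was -4.55 (95% interval -7.60 to -2.70). Clusters 4 and 1 overlapped (-0.10 ± 0.25, adjusted p 0.86).

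Signalling and membrane genes complete the list. *Gcsam* (ENSMUSG00000022659, chromosome 16, 45610380 to 45622867, plus strand) encodes an adaptor first described in germinal centre B cells, where it limits migration. Early sums were 63.1 CPM in WT, 63.6 in sGSN-/- and 69.3 in sGSN-/-Clec9a-/-. Resting sums were 122 CPM in WT, 118 in sGSN-/- and 118 in sGSN-/-Clec9a-/-. Activated sums were 72.5 CPM in WT, 63.6 in sGSN-/- and 76.4 in sGSN-/-Clec9a-/-. Early and activated sums overlapped each other and were all under the resting ones. By test they gave -0.87 ± 0.084, adjusted p 2.6e-06 in early cDC1s and -0.69 ± 0.086, adjusted p 2.3e-05 in activated ones. Cluster means were 151 ± 7.25 in cluster 2, 135 ± 10.4 in cluster 6, 113 ± 4.55 in cluster 0, 111 ± 6.80 in cluster 3, 91.7 ± 6.88 in cluster 7, 83.3 ± 5.98 in cluster 5. Then followed 82.4 ± 1.59 in cluster 1, 81.8 ± 30.6 in cluster 10, 70.6 ± 3.65 in cluster 9, 35.5 ± 9.15 in cluster 4 and 20.8 ± 8.91 in cluster 8. Differences beyond both SDs lay only between neighbours clusters 6 and 0, clusters 3 and 7, and clusters 9 and 4. Cluster 8 had 16, 20 and 16 UMIs, or 15.5 CPM in WT, 15.7 in sGSN-/- and 31.05 in sGSN-/-Clec9a-/-, with a log2 fold change of -2.47 ± 0.21, adjusted p 3.8e-11. Cluster 10 had 63.8 CPM in WT, 64.4 in sGSN-/- and 117 in sGSN-/-Clec9a-/-, each above the same library's cluster 8, and cluster 8 was lower by test (-1.91 ± 0.30, adjusted p 1.5e-05). Against resting cDC1s, cluster 10 was not called (-0.56 ± 0.21, adjusted p 0.07), but was without sGSN-/-Clec9a-/- (-0.97, adjusted p 0.0013) and with the block (-0.56, adjusted p 0.045). Cluster 4 was under cluster 1 in 3 of 3 libraries (-1.35 ± 0.16, adjusted p 2.9e-07).

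*Plpp1* (ENSMUSG00000021759, chromosome 13, 112800792 to 112867894, plus strand) encodes a membrane phosphatase that removes phosphate from lipids such as lysophosphatidic acid. *Mtrex* overlaps it on the other strand, with 2094 UMIs in cDC1s. Early cDC1s measured 9.31 CPM in WT, 13.1 in sGSN-/- and 15.6 in sGSN-/-Clec9a-/-. At rest the level was 44.7 CPM in WT, 45.05 in sGSN-/- and 50.3 in sGSN-/-Clec9a-/-. After activation it was 28.5 CPM in WT, 31.8 in sGSN-/- and 30.8 in sGSN-/-Clec9a-/-. No states overlapped, and resting sums were highest. The fit gave -1.91 ± 0.14, adjusted p 3.2e-07 for early and -0.56 ± 0.13, adjusted p 0.0057 for activated cDC1s. By cluster, its means were 59.005 ± 6.69 in cluster 0, 49.9 ± 5.40 in cluster 2, 44.8 ± 14.2 in cluster 9, 42.9 ± 2.91 in cluster 6, 42.1 ± 3.12 in cluster 3, 31.9 ± 7.49 in cluster 7. The remaining means were 24.1 ± 2.46 in cluster 5, 22.2 ± 7.004 in cluster 8, 15.65 ± 6.83 in cluster 10, 15.3 ± 3.42 in cluster 1 and 7.96 ± 4.93 in cluster 4. No neighbours in this order were apart by more than both SDs. In cluster 8 the log2 fold change was -0.96 ± 0.26, adjusted p 0.0035, and -0.69, adjusted p 0.1 without sGSN-/-. Cluster 10 had 3, 4 and 7 UMIs (-1.58 ± 0.45, adjusted p 0.015), and missed the threshold without WT (-1.41, adjusted p 0.087) and without sGSN-/- (-1.50, adjusted p 0.08). Cluster 7 was not called (-0.45 ± 0.18, adjusted p 0.095), but was with the block (-0.45, adjusted p 0.043).

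*Snx22* (ENSMUSG00000039452, chromosome 9, 66065176 to 66069719, minus strand) encodes a sorting nexin, a protein that binds phosphoinositides of endosomal membranes. *Ppib* overlaps its end on the other strand and had 43593 UMIs in cDC1s, so reads from it could enter if counting ignored the strand. Levels were 62.7 CPM in WT, 62.4 in sGSN-/- and 67.2 in sGSN-/-Clec9a-/- in early cDC1s. They were 88.1 CPM in WT, 85.6 in sGSN-/- and 79.2 in sGSN-/-Clec9a-/- in resting cDC1s. They were 75.3 CPM in WT, 75.6 in sGSN-/- and 66.6 in sGSN-/-Clec9a-/- in activated cDC1s. All early and activated sums were under the resting range, and early and activated sums overlapped each other. The log2 fold change was -0.39 ± 0.073, adjusted p 0.00088 in early cDC1s and -0.15 ± 0.075, adjusted p 0.17 in activated ones. Clusters ranked by mean were 111 ± 4.44 in cluster 2, 108 ± 16.2 in cluster 7, 101 ± 13.3 in cluster 3, 90.8 ± 13.5 in cluster 6, 82.1 ± 4.08 in cluster 1, 78.1 ± 3.84 in cluster 5. Last were 54.2 ± 5.97 in cluster 9, 54.03 ± 1.22 in cluster 0, 35.3 ± 18.6 in cluster 10, 32.4 ± 5.05 in cluster 4 and 21.2 ± 4.43 in cluster 8. Neighbours apart beyond both SDs were clusters 5 and 9, and clusters 4 and 8. The activated clusters went in different directions. Cluster 7 had 111 CPM in WT, 123 in sGSN-/- and 90.6 in sGSN-/-Clec9a-/-, above resting cDC1s in 3 of 3 libraries (0.48 ± 0.11, adjusted p 0.0022). That call was lost without WT (0.44, adjusted p 0.061) and without sGSN-/- (0.375, adjusted p 0.13). Cluster 8 had 16.5 CPM in WT, 22.04 in sGSN-/- and 25.2 in sGSN-/-Clec9a-/-, with a log2 fold change of -1.82 ± 0.19, adjusted p 2e-09. Cluster 10 was lower (-1.29 ± 0.24, adjusted p 0.00028), as was cluster 9 (-0.58 ± 0.15, adjusted p 0.02), the last not without sGSN-/-Clec9a-/- (-0.59, adjusted p 0.072).

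**Figure D2:**
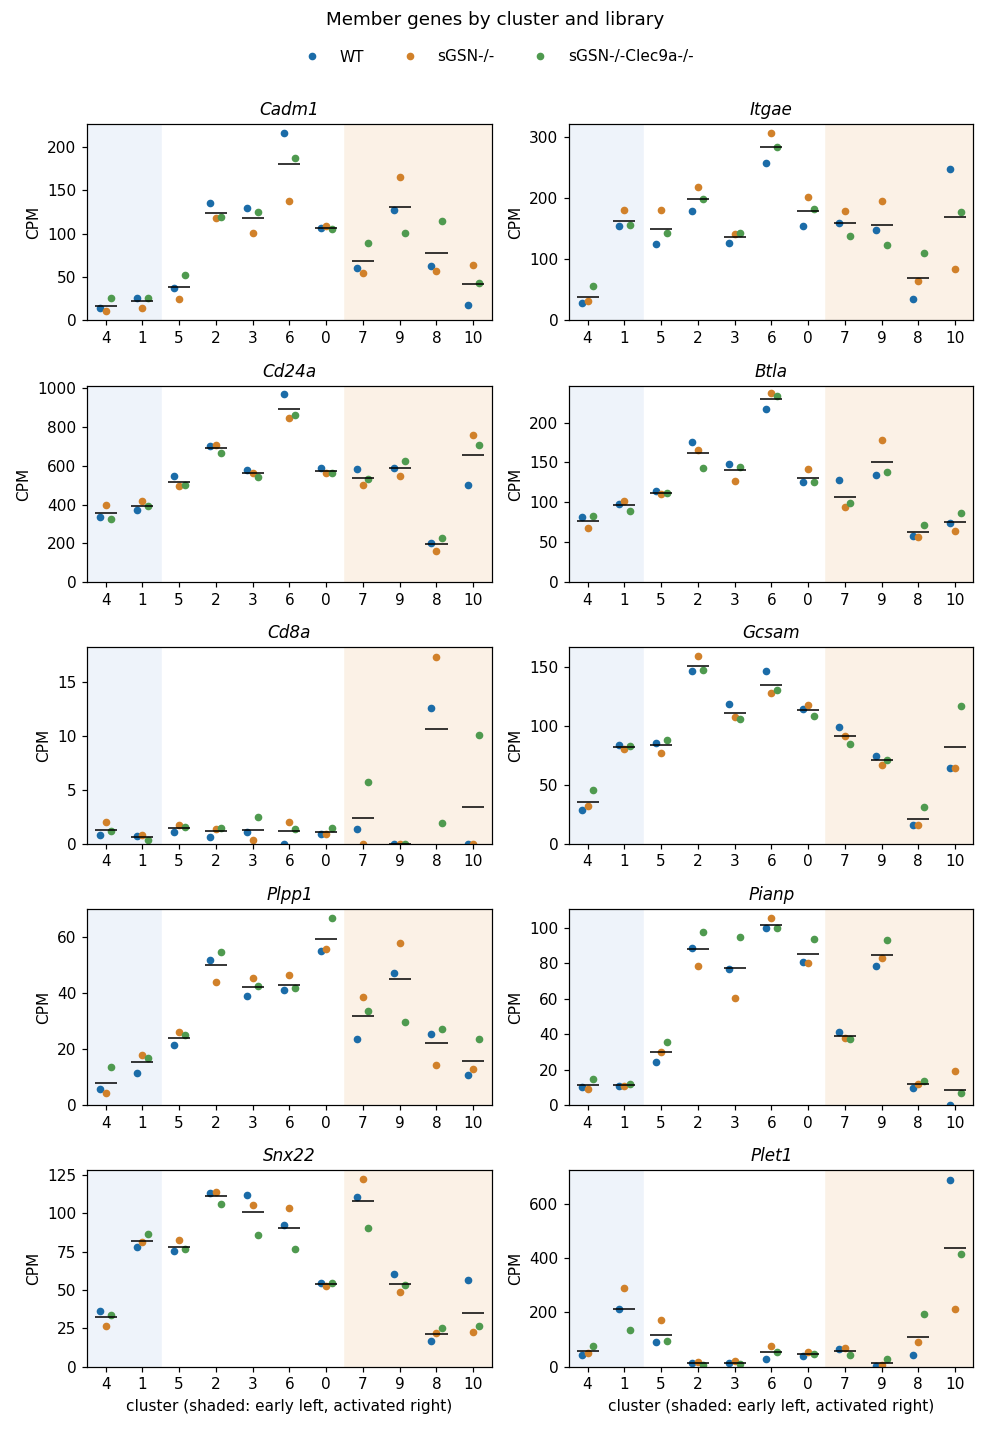
CPM of each gene (vertical axes) in clusters 4 and 1 (early), 5, 2, 3, 6 and 0 (resting) and 7, 9, 8 and 10 (activated); points are the 3 libraries and bars their mean. *Pianp* runs from 102 CPM in cluster 6 to 8.68 in cluster 10, and *Plet1* is highest in cluster 10.

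Shares of cells give the same genes at the level of single cells. Each cell was thinned to 4000 UMIs so that depth was equal, and shallower cells were left out: 54 of 1332 early, 107 of 3499 resting and 80 of 915 activated cDC1s. In this, a share of NK cell-like and of monocyte or macrophage-like cells serves as background; their median depths before thinning were 6922.5 and 14677 UMIs. *Cadm1* was seen in 4.695% (95% interval 3.60 to 6.002) of early, 31.6% (95% interval 30.1 to 33.2) of resting and 21.4% (95% interval 18.7 to 24.4) of activated cDC1s, with 0.427% and 1.42% as background. For *Itgae* the shares were 24.2% (95% interval 21.85 to 26.6), 43.99% (95% interval 42.3 to 45.7) and 31.5% (95% interval 28.4 to 34.8), over 1.885% and 1.05%. *Cd24a* reached 73.2% (95% interval 70.7 to 75.65), 88.7% (95% interval 87.6 to 89.75) and 75.2% (95% interval 72.1 to 78.1), over 3.98% and 19.45%. The intervals pool cells of 3 libraries and cover the counting of cells only. In each library taken alone, the resting share of these 3 genes was the highest of the 3 states. *Pianp* went from 3.29% (95% interval 2.38 to 4.42) of early to 26.2% (95% interval 24.7 to 27.7) of resting and 12.8% (95% interval 10.6 to 15.3) of activated cDC1s, over 0.2845% and 0.308%. *Plet1* was seen in 19.3% (95% interval 17.2 to 21.6), 7.13% (95% interval 6.29 to 8.05) and 10.1% (95% interval 8.10 to 12.3), over 0.569% and 0.740%. By library, *Plet1* shares were 5.65, 10.6 and 6.21% at rest and 7.77, 10.4 and 12.55% in activated cDC1s, with no rise in sGSN-/-. *Cd8a* was seen in 0.313% (95% interval 0.0853 to 0.799), 0.413% (95% interval 0.226 to 0.6915) and 1.20% (95% interval 0.576 to 2.19), over 0.0711% and 0.0308%. The 3 intervals of *Cd8a* overlapped each other, and the activated share rests on 10 of 835 cells. The early one overlapped both background intervals, and the resting one overlapped that of NK cell-like cells. In resting cDC1s the shares were 44.1% for *Btla*, 35.7% for *Gcsam*, 15.9% for *Plpp1* and 27.4% for *Snx22*, each above both backgrounds.

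Counted together, thinned resting cDC1s had a UMI of 3.21 of the 10 genes on average, early ones of 1.945 and activated ones of 2.39. Among activated clusters the mean was 2.79 in cluster 7, 2.93 in 9, 1.22 in 8 and 2.11 in 10. Cells with none of the 10 made up 37.2% of cluster 8, where thinning left 196 of 255 cells, and 1.18% of resting cDC1s. For NK cell-like cells that share was 91.6%.

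For levels outside cDC1s, all barcodes were clustered again without the 10 genes, and clusters were named from markers that include none of them. The deposited cDC1s, set against cDC2-like cells, were named by the authors from counts that held the 10 genes, so only the cDC2-like side is free of them. Rebuilt cDC1-like clusters held 1277 further barcodes that entered no fit. Their means were lower than those of the deposited cDC1s for 8 of the 10 genes, as with 37.5 ± 1.99 CPM for *Cadm1*, 106 ± 25.7 for *Itgae* and 56.8 ± 8.32 for *Gcsam*. For *Plet1* (94.9 ± 44.6) and *Cd8a* (1.79 ± 1.39) the difference was within the SDs. The share of all genes with a lower mean is not given. 1 of the cDC1-like clusters, with 950 barcodes, 470 of them deposited cDC1s, leads with *Ifit3* and *Cxcl9* and carries 5 of 8 macrophage markers. Its part in these means was not tested. The cDC2-like name covers 2 clusters with 5559 barcodes outside the deposited cDC1s. 1 of them, with 1860 barcodes, leads with *Retnla*, *Lpl* and *Ear2* and carries 6 of 8 macrophage markers, although the sort gated out CD88, so the name is that of the marker rule only. Of the 10 genes, 9 were called, all higher in cDC1s, beside 61.5% of 12514 genes tested (30.05% higher and 31.5% lower). Of all calls, 48.8% were higher in cDC1s, and 35.3% with library size factors, which moved the median of all genes to -0.14. Log2 fold changes with both clusters kept included 4.98 ± 0.19, adjusted p 5.1e-08 for *Gcsam*, 4.77 ± 0.088, adjusted p 1.9e-09 for *Snx22* and 4.13 ± 0.21, adjusted p 3.1e-07 for *Cadm1*. Others called were *Itgae* (3.67, adjusted p 3.4e-08), *Btla* (3.18, adjusted p 1.7e-08), *Plpp1* (4.04, adjusted p 9.9e-08), *Pianp* (2.70, adjusted p 4.7e-06) and *Plet1* (2.27, adjusted p 7.8e-06). *Gcsam* measured 103 CPM in WT, 95.04 in sGSN-/- and 100.5 in sGSN-/-Clec9a-/- in cDC1s and 2.28 CPM in WT, 4.29 in sGSN-/- and 4.31 in sGSN-/-Clec9a-/- in cDC2-like cells. *Snx22* measured 80.9 CPM in WT, 78.1 in sGSN-/- and 74.6 in sGSN-/-Clec9a-/- and, in cDC2-like cells, 2.74 CPM in WT, 3.35 in sGSN-/- and 3.47 in sGSN-/-Clec9a-/-. The groups did not overlap for any of the 9 genes. The share of all genes without overlap is not given, so this is not read as particular to them. For *Cd24a* the change was 1.60 ± 0.069, adjusted p 1e-07, where cDC2-like cells held 185 CPM in WT, 194 in sGSN-/- and 213 in sGSN-/-Clec9a-/-. *Cd8a* was not called (0.65 ± 0.27, adjusted p 0.062). It passed without WT (0.68, adjusted p 0.044), with the block (0.62, adjusted p 0.023) and where cDC2-like cells came only from the cluster with under 3 macrophage markers (2.08, adjusted p 0.00042). With that choice *Pianp* went from 2.70 to 6.275, and *Cadm1* from 4.13 to 6.185. *Gcsam* was then at 6.75 and *Plet1* at 1.79, so sizes and their order changed with the cluster that carries macrophage markers.

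Beyond cDC2-like cells, the genes had their own patterns over the rebuilt classes. Of the 3 clusters named proliferating-like, those with 1041 and 224 barcodes carry 6 of 7 cDC1 markers and that with 682 carries 8 of 8 macrophage markers, so this class is mixed by markers. *Cadm1* measured 39.4 ± 5.07 CPM in plasmacytoid-like cells, beside 84.97 ± 11.7 in cDC1s and 2.29 ± 0.802 in pre-cDC-like cells. *Btla* measured 43.1 ± 7.09 in pre-cDC-like cells, above 15.4 ± 2.33 in cDC2-like cells. *Itgae* was at 35.2 ± 15.3 in T cell-like and 30.8 ± 11.7 in plasmacytoid-like cells, beside 159.8 ± 12.7 in cDC1s. Its T cell-like and plasmacytoid-like levels did not differ beyond their SDs, and both were under that of cDC1s. *Cd8a* measured 224 ± 20.4 CPM in T cell-like and 109 ± 15.1 in plasmacytoid-like cells, beside 1.62 ± 0.3945 in cDC1s. Pre-cDC-like cells had 10.75 CPM in WT, 24.6 in sGSN-/- and 17.3 in sGSN-/-Clec9a-/-, all above the cDC1 sums. Levels were 0.752 ± 0.782 CPM in NK cell-like, 0.219 ± 0.127 in monocyte or macrophage-like and 0.713 ± 0.360 in proliferating-like cells. *Cd8b1* UMIs per *Cd8a* UMI were 1.88 in T cell-like, 3.795 in plasmacytoid-like and 0.272 in pre-cDC-like cells, and 0.116 in cDC1s. *Plet1* was at 17.6 ± 3.71 CPM in cDC2-like and 16.4 ± 2.75 in pre-cDC-like cells, which overlapped. Plasmacytoid-like cells had 40.3 CPM in WT, 1.29 in sGSN-/- and 53.3 in sGSN-/-Clec9a-/-. In T cell-like cells *Gcsam* was at 12.6 ± 1.82, and in plasmacytoid-like cells *Snx22* was at 10.7 ± 2.24 and *Plpp1* at 6.49 ± 4.17. Proliferating-like cells held 56.3 ± 5.53, 35.8 ± 2.57 and 19.2 ± 0.991 CPM of *Gcsam*, *Snx22* and *Plpp1*. Levels of these 3 genes were all under the cDC1 sums.

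**Figure D3:**
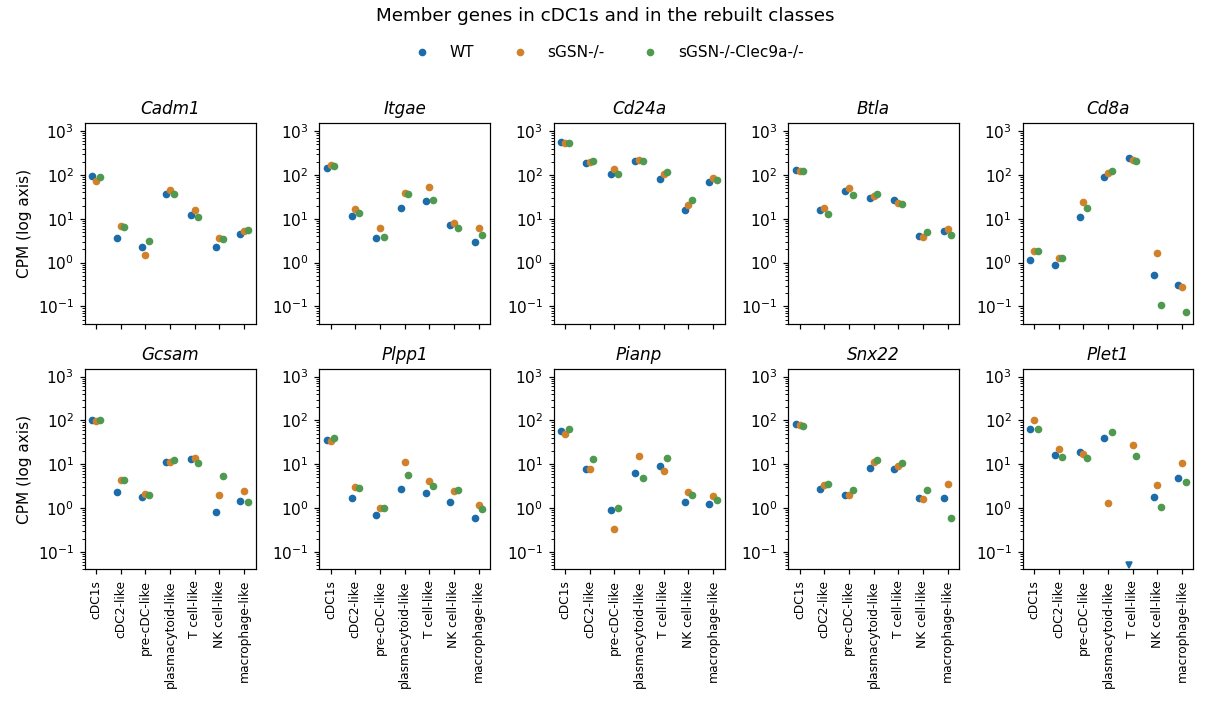
CPM on a log axis of each gene in cDC1s of clusters 0 to 10 and in 6 rebuilt classes; points are the 3 libraries and triangles at the lower edge mark sums with no UMI. *Cd8a* has its highest points in T cell-like cells, at 224 CPM on average.

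Between genotypes there is 1 library each, so ratios are given with exact Poisson intervals, which cover counting error only, and no test was made. Over clusters 0 to 10, *Cadm1* measured 92.6 CPM in WT, 71.5 in sGSN-/- and 90.8 in sGSN-/-Clec9a-/-. The log2 ratio of sGSN-/- to WT was -0.37 (95% interval -0.46 to -0.29), and that of sGSN-/-Clec9a-/- to WT was -0.028 (95% interval -0.11 to 0.055). *Pianp* measured 57.5 CPM in WT, 48.3 in sGSN-/- and 63.9 in sGSN-/-Clec9a-/-, with log2 ratios of -0.25 (95% interval -0.36 to -0.15) and 0.15 (95% interval 0.050 to 0.25). *Itgae* measured 146 CPM in WT, 171 in sGSN-/- and 163 in sGSN-/-Clec9a-/-, with 0.23 (95% interval 0.17 to 0.29) and 0.16 (95% interval 0.096 to 0.22). For *Cadm1* and *Pianp* the sGSN-/- library was the lowest of the 3, and for *Itgae* it was the highest. The libraries hold the clusters in different shares, and with the 11 clusters weighted equally the sGSN-/- ratio of *Cadm1* was -0.12 and that of *Pianp* 0.009. The *Itgae* ratio was then smaller as well, and stayed positive. In resting cDC1s alone the ratios were -0.31 (95% interval -0.41 to -0.21) for *Cadm1*, -0.15 (95% interval -0.27 to -0.031) for *Pianp* and 0.30 (95% interval 0.23 to 0.37) for *Itgae*. In early cDC1s they were -0.69 (95% interval -1.11 to -0.29), -0.10 (95% interval -0.62 to 0.41) and 0.27 (95% interval 0.12 to 0.42) in this order, and in activated ones -0.054 (95% interval -0.28 to 0.17), -0.21 (95% interval -0.54 to 0.11) and 0.058 (95% interval -0.11 to 0.22). For *Plet1*, over clusters 0 to 10, the levels were 64.8 CPM in WT, 100.4 in sGSN-/- and 63.7 in sGSN-/-Clec9a-/-, and sGSN-/- over WT was 0.63 (95% interval 0.55 to 0.72). In resting cDC1s sGSN-/- over WT was 0.91 (95% interval 0.76 to 1.06), in early cDC1s 0.46 (95% interval 0.33 to 0.58) and in activated ones -0.081 (95% interval -0.30 to 0.13). The difference between states was not tested. In activated cDC1s 5 cells held 47.9%, 40.8% and 49.05% of the *Plet1* UMIs, and these intervals take UMIs as independent. With clusters weighted equally it was -0.22, where cluster 10, with 21 WT cells, counts as much as any other. For *Cd24a*, *Btla*, *Gcsam*, *Plpp1* and *Snx22* both ratios over clusters 0 to 10 lay between -0.12 and 0.18. *Cd8a*, on 38, 44 and 39 UMIs, had 0.69 (95% interval 0.027 to 1.35) and 0.64 (95% interval -0.039 to 1.33).

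Genes around the 10 were read from 3 lists, beside the shares of all genes called higher and lower. These shares were 17.2% and 18.2% in early and 16.3% and 11.35% in activated cDC1s. They were 11.75% and 5.39% in cluster 7, 4.15% and 1.17% in cluster 9, 25.5% and 22.2% in cluster 8 and 8.32% and 6.34% in cluster 10. For cluster 8 against cluster 10 they were 16.01% and 11.6%, for cluster 4 against cluster 1 7.15% and 5.90% and against cDC2-like cells 30.05% and 31.5%. Of 21 other cDC1 genes, 0 were higher and 16 lower of 21 tested (median -0.57) in early cDC1s, with *Sept3* (-2.15) and *Tlr11* (-1.57) lowest. In activated cDC1s the counts were 4 higher and 10 lower of 21 tested (median -0.17), with *Gpr33* (1.36) and *Ifi205* (0.69) highest and *Tlr11* (-1.08) lowest. Cluster 8 had 2 higher and 14 lower of 21 tested (median -0.73), and cluster 10 had 4 higher and 9 lower of 21 tested (median -0.46). Counts were 3 higher and 4 lower of 21 tested (median -0.115) in cluster 7 and 1 higher and 1 lower of 21 tested (median 0.030) in cluster 9. For cluster 8 against 10 they were 2 higher and 9 lower of 21 tested (median -0.52), for cluster 4 against cluster 1 they were 0 higher and 10 lower of 21 tested (median -0.54), and against cDC2-like cells 20 higher and 0 lower of 21 tested (median 2.65). These 21 genes include the 7 cDC1 markers used in naming the rebuilt clusters, and XCR1 was in the sort. The direction against cDC2-like cells was thus partly set in advance and is no independent result. Binding partners of the 10 proteins were partly under the filter, with 5 of 10 tested by state and 3 by cluster. Early cDC1s had 1 higher and 2 lower of 5 tested (median 0.0088), with *Cdh1* (2.83) higher and *Crtam* (-2.45) lower. *Cdh1*, which encodes the E-cadherin that CD103 binds, measured 5.18 ± 0.525 CPM in early and 0.679 ± 0.283 in resting cDC1s. Activated cDC1s had 0 higher and 2 lower of 5 tested (median 0.092), with *Itgb7*, the partner chain of *Itgae*, at -0.55. In cluster 8 *Itgb7* measured 45.5 CPM in WT, 37.8 in sGSN-/- and 65.98 in sGSN-/-Clec9a-/-, beside 259.95 CPM in WT, 249 in sGSN-/- and 241 in sGSN-/-Clec9a-/- in resting cDC1s, and both integrin genes were lower there. The list gave 0 higher and 1 lower of 3 tested (median -0.42) in cluster 7, 0 higher and 0 lower of 3 tested (median 0.24) in 9, 0 higher and 1 lower of 3 tested (median -0.32) in 8 and 1 higher and 1 lower of 3 tested (median -0.66) in 10. It gave 0 higher and 1 lower of 3 tested (median -1.54) for cluster 8 against 10, 2 higher and 0 lower of 3 tested (median 0.40) for cluster 4 against 1 and 2 higher and 5 lower of 9 tested (median -2.60) against cDC2-like cells. Other adhesion genes went both ways: 7 higher and 7 lower of 18 tested (median -0.12) in early cDC1s, with *F11r* (2.39) among the higher and *Cd81* (-1.83) lowest. Activated cDC1s had 9 higher and 4 lower of 18 tested (median 0.43), with *F11r* (1.69) and *Icam1* (1.41) among the higher. By cluster they were 4 higher and 4 lower of 19 tested (median -0.14) in 7, 2 higher and 0 lower of 19 tested (median 0.29) in 9, 11 higher and 3 lower of 19 tested (median 0.79) in 8 and 7 higher and 5 lower of 19 tested (median 0.31) in 10. For cluster 8 against 10 they were 9 higher and 2 lower of 19 tested (median 0.54), for cluster 4 against cluster 1 they were 5 higher and 2 lower of 19 tested (median 0.20) and against cDC2-like cells 6 higher and 12 lower of 22 tested (median -0.42). The medians of the 10 genes in the same order of clusters 7, 9 and 10 were -0.18, -0.13 and -0.77. Medians of all genes tested were -0.012, -0.0058 and -0.038. For cluster 8 against 10, cluster 4 against 1 and cDC1s against cDC2-like cells the 10 genes had -0.31, -0.82 and 3.43.

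Likeness over the 33 sums of 3 libraries and 11 clusters was measured as Pearson r of log2(CPM + 1). It was ranked among 4695 other genes (4696 for *Cd8a*) with a mean of at least 20 CPM. Sums of a library share its depth and mice, and no p is given. *Cadm1* was most like *Plpp1* (0.861), *Sdc3* (0.858), *Tubb6* (0.857). *Itgae* was most like *Xcr1* (0.874), *Trio* (0.829), *Gcsam* (0.818). *Cd24a* went with *Atp8a1* (0.946), *Naaa* (0.911), *Wdfy4* (0.888). For *Btla* the closest were *Psap* (0.948), *Rab32* (0.937), *Arsb* (0.934), and for *Pianp* *Fgfr1* (0.931), *Gm3336* (0.906), *Grap* (0.893). *Gcsam* went with *Naaa* (0.924), *Gramd2* (0.891), *Gm6377* (0.882). *Plpp1* went with *Cadm1* (0.861), *Sept3* (0.861), *Fgd6* (0.848), and *Snx22* with *Tlr3* (0.876), *P2ry14* (0.847), *Commd8* (0.844). *Plet1* had lower values, with *Psmd11* (0.762), *Hist1h1c* (0.734), *Jtb* (0.724). Among the 10 genes, the highest pairs were *Cd24a* and *Gcsam* (r 0.876) and *Cadm1* and *Plpp1* (0.861). *Pianp* had r 0.803 with *Plpp1*, 0.801 with *Btla* and 0.801 with *Cadm1*. *Plet1* had a negative r with 8 of the other 9 genes, lowest with *Pianp* (-0.747) and near 0 with *Itgae* (-0.017). *Cd8a*, with its few UMIs, had *Cd2bp2* (0.712), *Rnf115* (0.688), *Tspan3* (0.687), and is not read as like any gene. *Cadm1*, *Snx22* and *Plet1* lie on chromosome 9, where the starts of *Cadm1* and *Plet1* are 2964352 bases apart, while those of *Btla* and *Gcsam* on chromosome 16 are 386065 bases apart.

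*Cd8a* and *Plet1* were the 2 genes higher in activated cDC1s, so their promoters are shown. RefSeq promoters (GRCm38.p6, 250 bases before to 50 after the start) were found for 6 of the 10 genes, with 9 starts. *Cadm1*, *Itgae*, *Cd24a* and *Plpp1* were not matched in the promoter set used. In them 4 motifs were searched on both strands: an IRF repeat, an ETS-IRF composite, AP-1 and an E-box. The search was chosen after the levels were seen, and the E-box was added after the *Btla* promoter had been seen. Of 32851 promoters, 3.44% held the IRF repeat, 2.72% the composite, 7.81% AP-1 and 7.15% the E-box. The *Cd8a* promoter held 2 matches to the composite, *Plet1* 1 to AP-1 and *Btla* 1 to the E-box, while no start of *Gcsam*, *Pianp* or *Snx22* held any of the 4. Capitals mark the matches, on the plus strand at chr6:71373177-71373476 for *Cd8a* and chr9:50494275-50494574 for *Plet1*. The composite and AP-1 matches are descriptions of these letters and not of bound sites.
Cd8a: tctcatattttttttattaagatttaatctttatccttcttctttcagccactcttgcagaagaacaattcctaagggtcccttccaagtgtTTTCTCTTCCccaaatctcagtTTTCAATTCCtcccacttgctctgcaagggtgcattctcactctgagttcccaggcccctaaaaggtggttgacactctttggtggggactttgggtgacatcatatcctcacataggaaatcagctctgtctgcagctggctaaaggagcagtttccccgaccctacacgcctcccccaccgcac
Plet1: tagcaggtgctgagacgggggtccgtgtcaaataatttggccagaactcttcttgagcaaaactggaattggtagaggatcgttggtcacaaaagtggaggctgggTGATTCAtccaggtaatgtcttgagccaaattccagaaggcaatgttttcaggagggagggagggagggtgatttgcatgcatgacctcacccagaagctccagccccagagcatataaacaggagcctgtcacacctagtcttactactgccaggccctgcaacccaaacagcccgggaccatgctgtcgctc

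These values have limits. *Cadm1*, *Itgae* and the other genes were each measured in 1 library per genotype, so libraries stand in for replicates that differ in genotype. Cluster 10 holds 76 cells, and *Cd8a* there rests on 3 UMIs. *Plet1* in clusters 8 and 10, *Itgae* in cluster 10 and *Cd8a* in cluster 8 and in activated cDC1s depend on few cells. Calls for *Cadm1*, *Btla* and *Snx22* in cluster 7 and for *Gcsam* and *Snx22* in cluster 9, among others given above, were lost in fits with 1 library left out. Fewer of all genes were called in the cluster 7 and cluster 9 fits as well. Counts of RNA do not show protein on the surface, and none was measured here for *Itgae*, *Btla* or *Cd8a*.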

How the data were processed

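Integer UMI counts as deposited by the authors (Cell Ranger 6.0.1, mm10/GRCm38) came as 1 matrix per genotype, with a table of cDC1 barcodes with cluster, library, genes and UMI counts per cell; 4559 of its 5806 UMI totals equalled the matrix sums. Deposited counts were summed per library and state (9 sums) or cluster (21 sums), and fitted in edgeR 4.0.16 (TMM factors, filterByExpr, quasi-likelihood test, Benjamini-Hochberg over all genes tested, 0.05). Cluster 11 was left out of the fits.

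All 30209 barcodes were also clustered without the 10 genes in scanpy 1.11.5 (Leiden resolution 1) after leaving out 54 barcodes under 200 genes and 1300 over 16.7% mitochondrial UMIs. A cluster was named when at least 3 markers were in 10% of its cells at 2 times the median CPM over clusters, a rule chosen after the data were seen. Doublets were kept, and the 6% highest Scrublet scores were left out as an alternative. Alternatives were library size factors, DESeq2 1.42.0, no filter, library as a block, each library left out, cells thinned to 4000 UMIs, and cells with T or NK cell UMIs left out. DESeq2 tested as many genes as the fit with no filter, so the tool and the gene set changed together. Sums of a library share its pool of mice. After subtracting group means, r between paired sums was 0.176 to 0.26 for early against resting cDC1s. It was 0.0362 to 0.0913 for cluster 10 against resting cDC1s. Over all comparisons it ran from -0.00251 (cluster 8 against cluster 10) to 0.289 (cDC1s against cDC2-like cells).

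All 10 genes are named in every comparison, and listed genes are among the 3 highest and 3 lowest called; 1 listed gene and 1 sort marker are not reported here. The genes and lists were chosen with earlier results of these data known. Gene positions are from GENCODE M21, GRCm38. Intervals are exact and cover counting error only. The shares of UMIs in the highest cells, *Cd8a* beside *Cd8b1* and ratios from few UMIs were chosen after the levels had been seen.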

Additional observations from a re-analysis of the deposited data

Results flagged for a closer look

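In cluster 10, *Itgae* and *Cd24a* moved against resting cDC1s in opposite directions in different libraries. The log2 ratio of CPM for *Itgae* was 0.62 in WT, -1.24 in sGSN-/- and -0.06 in sGSN-/-Clec9a-/-. For *Cd24a* it was -0.36 in WT, 0.33 in sGSN-/- and 0.22 in sGSN-/-Clec9a-/-. In these libraries 5 cells held 75.7%, 88.5% and 79.25% of the *Itgae* UMIs of cluster 10. With 1 library per genotype and 21, 27 and 28 cells, the difference was not tested.

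Cluster 11 takes part in no comparison, and 8 of the 10 genes had more UMIs there than the 3 that a count of 0 allows. The share of all genes above that count is not given, so this is not read as particular to the 10 genes. The 60 cells of cluster 11 held 6 UMIs of *Cadm1*, 47 of *Itgae*, 45 of *Cd24a*, 23 of *Btla*, 9 of *Gcsam*, 4 of *Plpp1*, 9 of *Snx22* and 41 of *Plet1*. Their median depth was 2348 UMIs, with 8.07% mitochondrial UMIs, whose part in these values was not tested.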

How the results depend on the processing

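With 1 library left out, genes called ranged 1875 to 3018 for early against resting cDC1s, 1618 to 2661 for activated against resting cDC1s, 899 to 1239 for cluster 7 against resting cDC1s, 209 to 363 for cluster 9 against resting cDC1s. They ranged 765 to 924 for cluster 10 against resting cDC1s, 1614 to 2019 for cluster 8 against cluster 10 and 536 to 916 for cluster 4 against cluster 1. Fewer sums enter each of these fits. Of the 10 genes, those called ranged 1 to 3 in cluster 7, 0 to 2 in cluster 9 and 2 to 5 for cluster 8 against cluster 10. With cells thinned to 4000 UMIs, fewer genes were tested, and 1665 were called for activated against resting cDC1s, 820 were called for cluster 7 against resting cDC1s, 246 were called for cluster 9 against resting cDC1s, 2593 were called for cluster 8 against resting cDC1s, 632 were called for cluster 10 against resting cDC1s, 1317 were called for cluster 8 against cluster 10 and 494 for cluster 4 against cluster 1. In cluster 9, 1 of the 10 was then called. Without the filter 7 of the 10 were called in cluster 7, where 18137 genes were tested in place of 9037. The share of all genes called there is not given, so this count is not read as particular to the 10 genes. The cause was not tested.

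Of 911 fold changes of the 10 genes under alternatives, 826 kept direction and side of the threshold, 35 were no longer called, 35 became called and 15 changed direction. The values that changed direction were uncalled in both fits. With 1 library left out, values against resting cDC1s ranged from -0.73 to 0.046 for *Cd8a* in early cDC1s, and from -0.20 to 0.025 for *Itgae* and -0.33 to 1.57 for *Cd8a* in cluster 7. They ranged from -0.081 to 0.11 for *Btla* and -0.22 to 0.22 for *Plpp1* in cluster 9, and from -0.57 to 0.24 for *Itgae*, -0.079 to 0.26 for *Cd24a* and -4.935 to 2.09 for *Cd8a* in cluster 10. For cluster 8 against cluster 10 they ranged from -0.12 to 0.006 for *Btla* and -0.85 to 0.12 for *Snx22*. The lowest *Cd8a* value of cluster 10 comes from sums with no *Cd8a* UMI. Without the filter, *Btla* was -0.077 in cluster 9 and *Cd24a* -0.015 in cluster 10. Between clusters 4 and 1, *Pianp* was 0.006 with library size factors and 0.036 without cells holding T or NK cell UMIs. Genotype ratios of sGSN-/- over WT changed direction for *Pianp* (0.009) and *Plet1* (-0.22) with the 11 clusters weighted equally, and the cause of each change above was not tested. Of 60 shares of cells with a UMI under another depth, 57 moved beyond their interval. Such a share falls with fewer UMIs per cell and rises with more, so these moves were largely set by the depth chosen.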
